A study of Mus musculus with 5 samples.

Results

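Adult mouse cerebellum at postnatal day 56 (P56) was compared with cerebellum at postnatal day 7 (P7), an age at which granule cell progenitors are known to divide strongly. The members are these 2 of the 5 samples of the series, compared over all 897 probes of the array; the other samples are embryonic day 18 (E18) and postnatal days 14 and 21 (P14 and P21). All 5 are total RNA of whole cerebellum of Mus musculus, and the labels give no treatment, strain, sex or number of animals. Each age has 1 column of values, which the labels describe as a mean signal of 2 array experiments whose separate values were not analysed here. No p-value is therefore given, no spread between replicates can be stated, and the number of arrays limits the precision. Of the 897 probes, 787 carry 1 gene symbol and together name 773 genes.

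In the first weeks after birth the mouse cerebellum grows mainly by division of granule cell progenitors in the external granule layer, a transient sheet of cells under the pial surface, driven by Sonic hedgehog from Purkinje cells. Their daughters leave the cell cycle, extend axons, migrate inward past Bergmann glia and become the small excitatory granule cells of the adult internal granule layer. The adult tissue has no external granule layer, its neurons carry mature receptors, channels and synapses, and its axons are myelinated. The comparison of P56 with P7 sets this finished tissue against the dividing one.

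The deposited values lie between 0.01 and 100. They were taken as percent, with 100 standing for the highest age of a probe in an experiment, before averaging. This reading comes from the values: 420 probes stand at exactly 100 at 1 age and 0 probes do so at 2 ages or more. Ages can thus be compared within a probe, while values of different probes or genes cannot. Differences are log2 of the P56 value over the P7 value, with values under 1% set to 1%; where this applies, the fold is given as a lower bound. The words rose and fell are used for differences of 2-fold or more.

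From P7 to P56, 469 of the 897 probes fell (52.3%), 169 rose (18.8%) and 259 stayed within 2-fold. The median difference was -1.04 (log2), with quartiles at -1.57 and 0.58. On the deposited scale 27 probes fell by 16-fold or more and 28 by 8-fold to under 16-fold, against 3 and 19 that rose by as much. Folds of this size rest on low values at 1 age, and how background was corrected is not known. Most changes were moderate, with 329 falls and 116 rises between 2-fold and 4-fold. Which direction held the larger differences depends on the scale: after division of each column by its median, the largest differences were 7.62 (log2) for Dao, a rise, and -5.66 for the falls of Ccnd2, Hmgb2 and Igfbpl1, all with values under 1% set to 1%. Near the threshold, 116 probes were between 1.8-fold and 2.2-fold lower and 44 were between 1.8-fold and 2.2-fold higher.

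**Figure D1:**
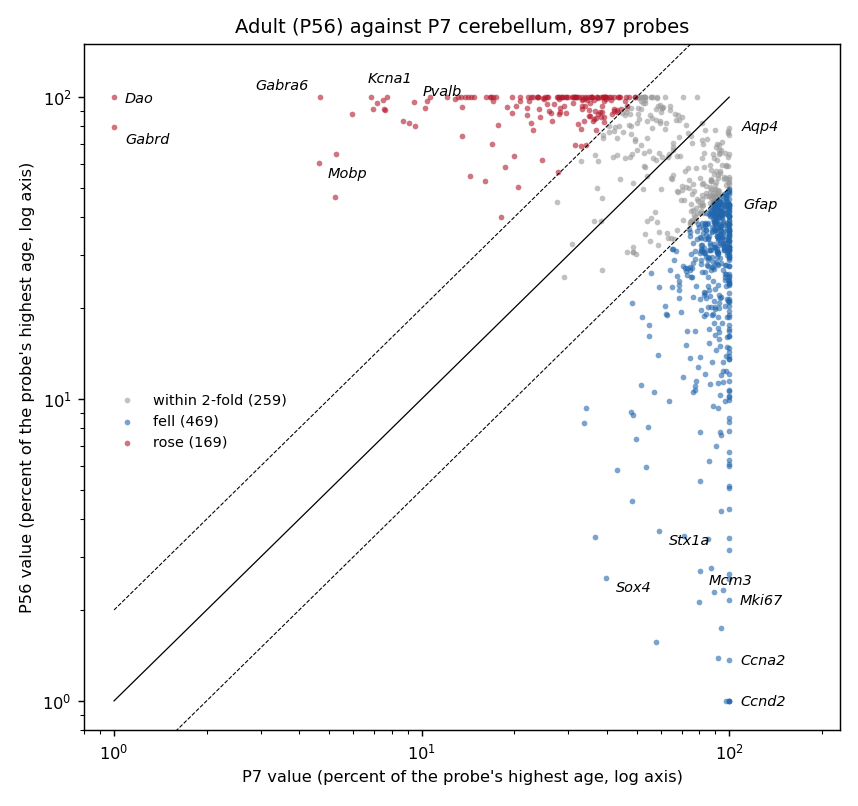
Each point is 1 of the 897 probes, with its P7 value on the horizontal and its P56 value on the vertical log axis, both in percent of the probe's highest age and with values under 1% drawn at 1%; the solid line marks equal values and the dashed lines 2-fold differences. The 469 probes that fell lie in a column at high P7 values, and the 169 that rose lie in a row at high P56 values, with Dao and Gabrd at the left edge and Ccnd2 at the lower right.

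The averaged values put a limit on how far the experiments behind a column can differ, if each experiment lies between 0 and 100. Means more than 50 points apart are then possible only if both experiments changed in 1 direction, which covers 354 of the 469 falls and 141 of the 169 rises. By the same arithmetic, each of the 2 experiments taken alone must have fallen by 2-fold or more for 112 probes and by 4-fold or more for 47. For rises these numbers are 47 and 16. This smallest fold in either experiment is given below for genes on which a statement turns; it is a bound from the averages and not a measured spread.

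The balance of rises and falls also depends on how the columns are put on 1 scale, which the labels do not say. The median value over the 897 probes was 82.8% at P7 and 42.0% at P56. With each column divided by its median, which moves the median difference by 0.98, 271 probes were higher and 141 lower at P56. With quantile normalization, which moves it by 0.83, the numbers were 231 and 192. Changes of gene lists are therefore set against the median of all named genes, -1.05 (log2), and a fall close to 2-fold is a change of about the same size as that of the median gene. For the counts in lists, the shares to compare are 52.8% of all named genes that fell and 18.6% that rose.

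**Figure D2:**
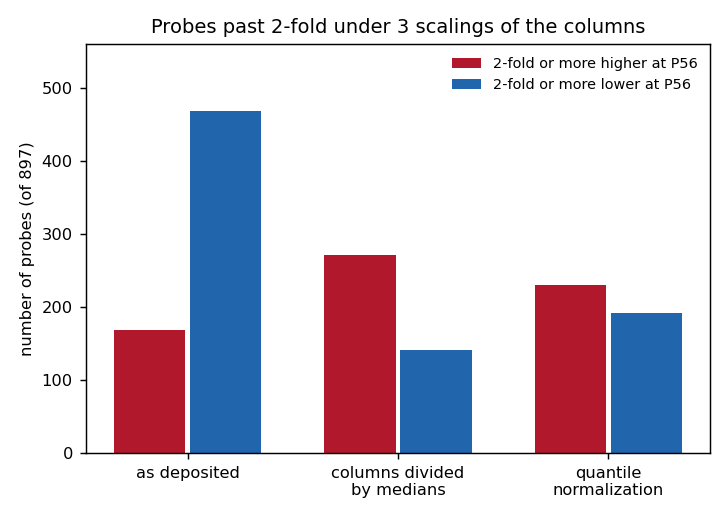
Bars give the number of probes, of 897, that were 2-fold or more higher (red) or lower (blue) at P56 than at P7, with the columns as deposited, divided by their medians, and after quantile normalization. The values go from 169 higher and 469 lower as deposited to 271 and 141 with division by medians and 231 and 192 with quantile normalization.

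The 469 probes that fell and the 169 that rose also differ at the ages the comparison did not use. Those that fell had median values of 90.6% at E18, 92.2% at P7, 46.6% at P14, 32.4% at P21 and 30.7% at P56. Their highest age was P7 for 244 probes and E18 for 214. Those that rose had medians of 23.8% at E18, 28.6% at P7, 67.9% at P14, 84.7% at P21 and 97.5% at P56, with the highest age at P56 for 104, P21 for 50 and P14 for 15 probes. In both groups most of the distance lay between P7 and P14, and the median of the falling probes moved by under 2 points after P21. The falling course was much like that of all 897 probes, whose median went from 82.8% at P7 to 55.5% at P14. That median was 84.5% at E18, 42.25% at P21 and 42.0% at P56. The groups were picked on P7 and P56, so their values at these ages follow from the rule, which also bears on their highest ages.

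Genes of cell division fell together and furthest. Among 50 measured genes in the lists of G1 and S phase regulators, DNA replication, and mitosis and spindle, 48 fell and 0 rose, against 52.8% of all named genes that fell and 18.6% that rose. Their median difference was -3.01 (log2), which is nearly 8-fold. Dividing the columns by their medians left 35 of the 50 past 2-fold (16.4% of all named genes fell on that scale), and quantile normalization left 39 (22.5%). P7 was the highest age for most of them: 38 of the 50 peaked then, 10 at E18 and 2 at a later age. For comparison, P7 was the highest age of 301 of all 897 probes and of 244 of the 469 probes that fell. In whole tissue, fewer cells of a type and less RNA per cell cannot be told apart.

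The G1 and S phase regulators decide whether a cell enters a new round of division. Of 15 measured, 14 fell, with a median of -2.89. Ccnd2, the cyclin D2 gene, stood at 49.5% at E18, 100% at P7, 10.1% at P14, 0.50% at P21 and finally 0.03% at P56, and was at least 100-fold lower in the adult. Its relative Ccnd1, also a Hedgehog-responsive cyclin, fell less, by 4.53-fold from 90.0% on 1 probe and by 2.63-fold from 71.7% on the other. The value of Ccnd2 at P56 was thus near the bottom of the scale while Ccnd1 kept 19.9% and 27.3% of its maximum. Ccna2, the cyclin A2 gene that acts in S phase and G2, fell from 100% to 1.37% (73.0-fold, and at least 36.5-fold in either experiment). Cks1b, whose small protein binds cyclin-dependent kinases, fell from 100% to 2.53% (39.5-fold). E2f1, a transcription factor gene that switches on S phase genes, fell from 100% to 5.99% (16.7-fold). Among the kinases, Cdk4 fell 6.64-fold and Cdk2 5.87-fold. Cdkn1c, which encodes an inhibitor of these kinases, fell too, 7.41-fold from 43.1% to 5.81%, but its highest age was E18. The inhibitor gene Cdkn1a was the list's exception: its 2 probes stood at 46.4% and 48.8% at P7, 100% at P14 and 30.7% and 31.8% at P56.

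All 17 measured genes of DNA replication fell, with a median of -2.88. The MCM proteins form the helicase that opens DNA at origins. Mcm3 stood at 81.6% at E18, 80.2% at P7, 8.47% at P14, 6.79% at P21 and 2.70% at P56; the fall from P7 was 29.7-fold. The other measured MCM genes were less depleted: Mcm10 fell 10.1-fold, Mcm5 9.41-fold, Mcm7 8.24-fold, Mcm4 7.36-fold and Mcm2 6.62-fold. Genes that supply nucleotides also fell, with Rrm2, the regulated subunit of ribonucleotide reductase, from 100% to 3.46% (28.9-fold) and Rrm1, its partner subunit, from 94.2% to 12.0% (7.85-fold). Tk1, the thymidine kinase gene, was at 100% at P7 and already at 4.43% at P14, with 0.04% at P21 and 6.26% in the adult (15.97-fold). The smallest falls in the list were those of the flap endonuclease gene Fen1 (3.06-fold), the clamp loader gene Rfc1 (2.84-fold) and Dnmt1, the maintenance DNA methyltransferase gene (2.30-fold, from 88.9% to 38.6%). Pcna, the sliding clamp gene, fell 4.22-fold.

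Of 18 measured genes of mitosis and the spindle, 17 fell, with a median of -3.62, the lowest of the lists. Ncaph, a condensin subunit gene, went from 97.8% at P7 to 0.07% at P56 and was at least 97.8-fold lower. Prc1, which bundles microtubules between separating chromosomes, fell from 91.6% to 1.39% (65.9-fold, and at least 30.0-fold in either experiment). Mki67, the gene of the Ki-67 proliferation antigen, stood at 57.2% at E18, 100% at P7, 7.93% at P14, 3.74% at P21 and 2.16% at P56 (46.3-fold). Cdk1, the kinase gene of entry into mitosis, fell from 95.3% to 2.33% (40.9-fold), and Cdc20, whose product activates the anaphase-promoting complex, from 100% to 5.06% (19.8-fold). Cenpa, the gene of the histone variant that marks centromeres, fell 22.1-fold. At the other end, Ccnf, Kif20a and Bub3 fell 2.31-fold, 2.19-fold and 2.13-fold, close to the fall of the median gene. Stmn1, a tubulin-binding protein gene that young neurons express as well, stood at 81.4% and 44.6%.

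Promoters of mitotic genes are known for CCAAT boxes, bound by the factor NF-Y, and for the cell cycle genes homology region, whose usual core is TTTGAA. The 250 bases before the annotated start of 4 division genes that fell (Cdk1, Cdc20, Mki67 and Cks1b) and of 1 granule cell gene that rose (Gabra6) are shown 5′ to 3′ on the gene's strand. They are examples chosen by no stated rule, and division genes with larger falls, such as Prc1 and Ccna2, are not shown. Capitals mark CCAAT and TTTGAA on either strand, so that ATTGG and TTCAAA are capitalised too. The sequences are from RefSeq, build GRCm38.p6, at chr10:69352913-69353162 for Cdk1, chr4:118437344-118437593 for Cdc20, chr7:135716380-135716629 for Mki67, chr3:89418292-89418541 for Cks1b and chr11:42321073-42321322 for Gabra6, all on the minus strand.
Cdk1: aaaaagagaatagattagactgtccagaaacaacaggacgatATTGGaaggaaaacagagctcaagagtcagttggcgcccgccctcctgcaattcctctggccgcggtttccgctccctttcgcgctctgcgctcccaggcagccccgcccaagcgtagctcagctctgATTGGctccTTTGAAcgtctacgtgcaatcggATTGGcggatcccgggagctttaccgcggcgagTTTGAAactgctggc
Cdc20: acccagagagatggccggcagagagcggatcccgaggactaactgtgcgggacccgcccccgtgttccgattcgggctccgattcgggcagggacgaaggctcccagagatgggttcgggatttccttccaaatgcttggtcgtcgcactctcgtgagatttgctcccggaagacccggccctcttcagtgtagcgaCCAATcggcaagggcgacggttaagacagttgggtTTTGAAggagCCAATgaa
Mki67: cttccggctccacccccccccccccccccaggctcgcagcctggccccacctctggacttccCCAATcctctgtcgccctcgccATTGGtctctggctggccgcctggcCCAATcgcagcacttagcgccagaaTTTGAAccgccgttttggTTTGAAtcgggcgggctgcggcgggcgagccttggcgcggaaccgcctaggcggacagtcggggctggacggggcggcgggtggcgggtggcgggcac
Cks1b: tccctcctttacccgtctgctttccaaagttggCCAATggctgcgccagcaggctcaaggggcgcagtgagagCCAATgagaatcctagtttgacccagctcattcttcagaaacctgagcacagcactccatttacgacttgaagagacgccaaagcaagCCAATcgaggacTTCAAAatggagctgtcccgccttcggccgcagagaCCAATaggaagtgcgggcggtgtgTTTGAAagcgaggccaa
Gabra6: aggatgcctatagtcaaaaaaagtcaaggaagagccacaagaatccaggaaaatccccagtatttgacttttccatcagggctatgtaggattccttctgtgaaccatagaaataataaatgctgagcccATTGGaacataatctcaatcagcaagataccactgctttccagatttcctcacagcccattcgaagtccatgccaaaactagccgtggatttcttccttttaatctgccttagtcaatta

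The 4 division gene windows hold from 2 to 4 CCAAT and from 1 to 2 TTTGAA matches each, and the Gabra6 window holds 1 CCAAT and 0 TTTGAA matches. Over the genes measured, windows were found for 604 of the 773, and the first listed window of each gene was searched. CCAAT was present in 13 of the 14 windows of the mitosis list and TTTGAA in 8 of the 14, and the same 8 held both. The 4 division windows shown all hold both and so do not stand for the whole list. Cks1b is from the G1 and S phase list, whose windows were not counted. For comparison, CCAAT was present for 34.5%, TTTGAA for 16.3% and both for 5.73% of all 27025 genes with a RefSeq promoter window, and for 39.2%, 12.6% and 5.63% of the 604. In the DNA replication list, where every measured gene fell, CCAAT was in 12, TTTGAA in 4 and both in 3 of 16 windows. Of the 324 windows of genes that fell, 45.1% held CCAAT and 14.2% TTTGAA, and of the 170 of genes within 2-fold 38.2% and 10.6%. Of the 110 windows of genes that rose, 23.6% held CCAAT and 10.9% TTTGAA. Neither motif contains the other on either strand, and a match in these windows is a description of letters and not of binding.

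Chromatin genes of dividing cells fell less evenly. Of 17 measured, 14 fell and 0 rose, with a median of -1.96, against 52.8% and 18.6% of all named genes. After division by medians 7 of the 17 fell (16.4% of all named genes), and after quantile normalization 9 (22.5%). The high mobility group genes, which encode proteins that bend or loosen DNA in chromatin, had very different falls. Hmgb2 went from 100% to 0.82% and was at least 100-fold lower, Hmgb3 fell 12.98-fold from 90.5% to 6.97%, and Hmgb1 stood at 92.0% and 49.1%, within 2-fold. Hmgn2 fell 6.79-fold and Hmgn1 2.64-fold. Sinhcaf, whose product is part of Sin3 deacetylase complexes, fell 24.9-fold from 85.6% to 3.44%. Ezh2, the methyltransferase gene of the Polycomb repressive complex, fell 9.85-fold from 92.3% to 9.37%. Smarca4 and Rbbp4, which encode subunits of general remodelling complexes, stood at 84.2% and 47.0% and at 90.3% and 52.3%.

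In the list of granule cell progenitor and Hedgehog pathway genes, 8 of 8 measured fell (median -2.37), against 52.8% of all named genes. Mycn, Ccnd1 and Ccnd2 are also counted in the G1 and S phase list. Neurod1 and Pax6 were also chosen as markers of mature granule cells. The defining progenitor genes Atoh1, Gli1 and Gli2 are not among the named probes. Beside the cyclins, Mycn, the Myc family gene that Hedgehog signalling induces in these progenitors, fell from 89.5% to 2.29% (39.1-fold, and at least 17.2-fold in either experiment). Sfrp1, which encodes a secreted Wnt antagonist, stood at 34.7% at E18, 100% at P7, 25.3% at P14, 3.79% at P21 and 10.7% at P56 (9.35-fold). The other transcription factors of the list fell less than Mycn. Nhlh1 fell 7.72-fold, Meis1 3.18-fold and Pax6 2.96-fold. Neurod1, a factor of differentiating granule cells, had 94.2% at P7, 96.1% at P14 and 95.2% at P21, against 56.7% at E18 and 40.6% at P56 (2.32-fold below P7). Division by medians left 4 of the 8 past 2-fold (16.4% of all named genes fell on that scale) and quantile normalization 5 (22.5%).

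Of 13 measured Sox, Notch, Id, Ebf and Engrailed regulators 9 fell and 0 rose (median -1.97), against 52.8% and 18.6% of all named genes. After division by medians 5 fell and 1 rose (16.4% and 29.8% of all named genes). After quantile normalization 8 fell and 0 rose (22.5% and 25.4%). Sox11, a factor gene of newborn neurons, fell from 93.8% to 1.74% (53.9-fold). Its relative Sox4 fell from 39.9% to 2.56% (15.6-fold), having stood at 100% at E18, whereas Sox2, which glia keep in the adult, stood at 89.1% and 46.9%. Ebf3 fell 10.5-fold and 5.52-fold on its 2 probes, while Ebf1 and Ebf2 went from 63.5% to 34.1% and from 38.5% to 26.7%. Notch1 fell 6.797-fold, Notch3 2.72-fold, Id3 5.56-fold and Hes6, a factor gene of neuronal differentiation, 4.40-fold and 3.50-fold on its 2 probes. Numb, which encodes an antagonist of Notch, stood at 58.0% and 84.2%.

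Genes of young neurons, of their axon growth and of their migration gave a mixed picture. Of 20 measured, 11 fell, 2 rose and 7 stayed within 2-fold, with a median of -1.30, close to the -1.05 of all named genes. The share that fell, 55%, was close to the 52.8% of all named genes, and 10% rose against 18.6%. Under either of the other scalings 8 fell and 5 rose. Of all named genes 16.4% fell and 29.8% rose after division by medians, and 22.5% and 25.4% after quantile normalization. Igfbpl1, a gene of newborn neurons, was at 100% at P7, 10.7% at P14, 0.57% at P21 and 0.03% at P56, at least 100-fold lower. Dpysl3, a collapsin response mediator of growth cones, fell from 36.7% to 3.50% (10.5-fold), with its maximum at E18. Cxcr4, the chemokine receptor that holds progenitors near the meninges, fell 6.17-fold from 79.1% to 12.8%. The growth cone substrates Basp1, Marcks and Marcksl1 fell 5.61-fold, 5.29-fold and 4.90-fold and were still at 76.2%, 65.3% and 85.0% at P14. Neurofilament genes went in different directions: Nefh, the heavy subunit of mature axons, rose from 28.0% to 100% (3.58-fold), and Nefm, the medium subunit, stood at 30.8% and 32.7%. Peg3, an imprinted gene, rose 2.78-fold. Dab1, the Reelin adaptor, and Runx1t1 stood at 44.1% and 53.5% and at 37.2% and 50.01%.

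**Figure D3:**
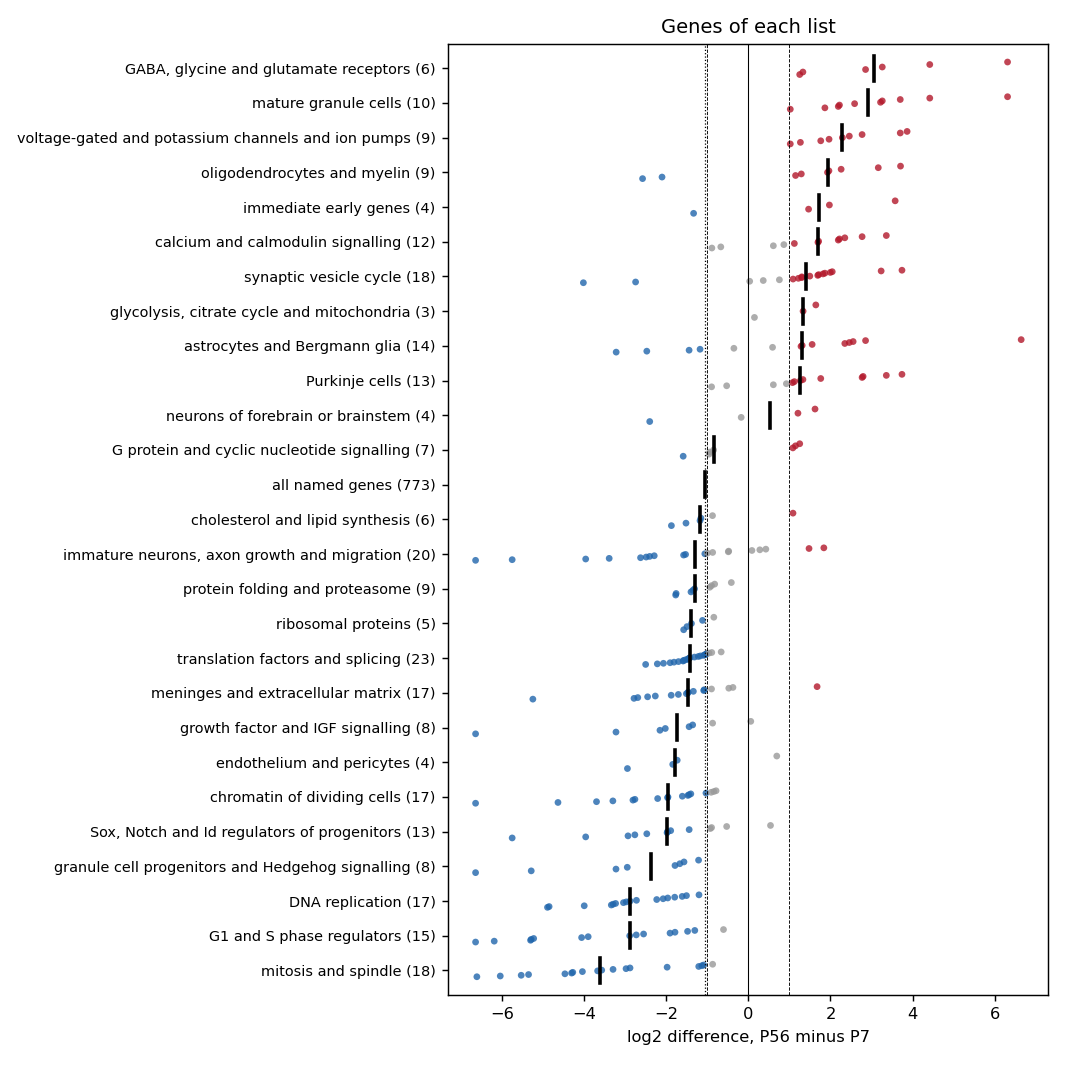
Each point is a gene, placed by its log2 difference P56 minus P7 and coloured red where it rose, blue where it fell and grey where it stayed within 2-fold; bars are list medians, the dotted line is the median of all 773 named genes, dashed lines mark 2-fold, and numbers of measured genes are in parentheses. List medians run from -3.62 for mitosis and spindle to 3.06 for GABA, glycine and glutamate receptors. The last list also holds the neurotensin receptor gene Ntsr2.

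Genes for the general machinery of protein synthesis fell by about as much as the median gene. Of 23 genes of translation factors and splicing 20 fell and 0 rose, against 52.8% and 18.6% of all named genes. Their median was -1.43 (log2), 0.38 below that of all named genes. Snrpg, a core protein gene of splicing particles, fell most, 5.66-fold from 99.9% to 17.6%, followed by Hnrnpab (4.65-fold), the helicase gene of translation initiation Eif4a1 (4.19-fold) and Snrpe (3.75-fold). Of 5 ribosomal protein genes 4 fell (median -1.39), by between 2.17-fold (Rpl7) and 2.98-fold (Rpl10a). Of 9 genes of protein folding and the proteasome 5 fell (median -1.31): Ppib 3.41-fold, Hspa4 3.39-fold, the chaperonin subunit genes Cct4 and Cct5 2.63-fold and 2.48-fold, and P4hb 2.55-fold. That share, 55.6%, was close to the 52.8% of all named genes. The 3 measured proteasome genes stayed within 2-fold, and Psmd12 was at 94.8% and 71.1%. On the scale divided by column medians 3 of the 23, 0 of the 5 and 0 of the 9 fell, against 16.4% of all named genes. The falls of these lists thus depend on the scale between columns.

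In the list of mature granule cell genes 10 of 10 measured rose, with a median of 2.90 (log2), against 18.6% of all named genes. All 10 also rose after division by medians and after quantile normalization, where 29.8% and 25.4% of all named genes rose. Neurod1 and Pax6, also chosen as markers of mature granule cells, were counted in the progenitor list and fell 2.32-fold and 2.96-fold. GABA-A receptors with the alpha 6 and delta subunits give granule cells their tonic inhibition. Gabra6 stood at 0.72% at E18, 4.67% at P7, 94.2% at P14, 97.4% at P21 and 99.8% in the adult. Its rise from P7 was 21.4-fold, and at least 10.7-fold in either experiment. Gabrd stood at 0.02%, 0.61%, 71.8%, 94.6% and 79.5% at the same ages, a rise of at least 79.5-fold. Both genes were thus near the bottom of their scale at P7 and above 70% a week later. Kcnj9, a subunit gene of G protein-gated potassium channels, climbed more slowly, from 7.70% at P7 to 42.6%, 66.4% and 100% (12.99-fold). Grin2c, the NMDA receptor subunit gene that mature granule cells acquire, rose 9.59-fold from 8.71% to 83.5%, and Etv1, an activity-dependent transcription factor gene, 9.31-fold from 10.4% to 96.8%. Tiam1, a Rac exchange factor gene, rose 6.01-fold, and Kcnd2, a subunit of A-type potassium channels, rose least, 2.03-fold from 49.3% to 100%.

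All 6 measured neurotransmitter receptor genes rose (median 3.06), against 18.6% of all named genes, and 3 of the 6 were already named for granule cells. Ntsr2, a neurotensin receptor gene that astrocytes express, stood at 13.8% at P7, 15.4% at P14, 33.0% at P21 and 100% at P56 (7.23-fold), 3.03-fold above its next highest age. Gria1, an AMPA receptor subunit gene of Bergmann glia among other cells, rose 2.51-fold from 39.8% to 100%, and Glrb, the glycine receptor beta subunit gene, 2.38-fold.

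The 9 measured genes for ion channels and pumps all rose (median 2.29), against 18.6% of all named genes. All 9 also rose after division by medians and after quantile normalization, where 29.8% and 25.4% of all named genes rose. Kcna1, the Kv1.1 channel gene of basket cell terminals and axons, rose from 6.86% to 100% (14.6-fold, and at least 7.29-fold in either experiment). Kcnab1, a beta subunit gene of Kv1 channels, rose 4.89-fold, and Scn1a, the Nav1.1 sodium channel gene, 3.90-fold from 25.6% to 100%. Atp1b2, a glial subunit gene of the sodium pump, rose 5.50-fold from 13.5% to 74.3%, with its maximum at P21. Atp2a3, a calcium pump gene of the endoplasmic reticulum that Purkinje cells express, rose on both probes, by 14.8-fold from 5.92% to 87.8% on one and by 3.14-fold from 18.7% to 58.7% on the other. The probes of Atp2a3 differed by 2.24 (log2), the largest gap among the 14 genes with 2 probes. The median gap was 0.37; all 14 pairs had the same sign, and 12 of the 14 the same call.

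Of 12 measured genes of calcium and calmodulin signalling 8 rose and 0 fell (median 1.70), against 18.6% and 52.8% of all named genes. Pvalb, the gene of the calcium buffer parvalbumin of Purkinje cells and molecular layer interneurons, stood at 2.37% at E18, 9.41% at P7, 95.6% at P14, 100% at P21 and 96.6% at P56 (10.3-fold). Calb2, the calretinin gene of granule and unipolar brush cells, rose 4.56-fold, Vsnl1, a neuronal calcium sensor gene, 4.65-fold and S100b 5.09-fold. Camk2b, the kinase subunit gene of mature synapses, rose 3.24-fold. Calb1, a calcium buffer that Purkinje cells make from early on, stood at 60.9% and 92.8%, within 2-fold, and Calm3, a calmodulin gene, at 99.5% and 53.7%.

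Of 13 measured Purkinje cell genes 9 rose and 0 fell (median 1.27), against 18.6% and 52.8% of all named genes. Nptx1, a neuronal pentraxin that clusters AMPA receptors, rose 13.4-fold from 7.16% to 95.7%, and Ank1, an ankyrin gene, 6.93-fold from 14.4% to 100%. The 4 within 2-fold were Calb1, Gad1 (52.7% and 100%), Ebf1 and Ebf2; the last pair are early factors of these neurons, both lower at P56. Pcp2 rose 2.11-fold and Slc1a6, the Purkinje glutamate transporter gene, 2.51-fold, and both had their highest value at P14.

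Of 18 measured genes of the synaptic vesicle cycle 13 rose and 2 fell (median 1.40), against 18.6% and 52.8% of all named genes. Vesicle fusion needs SNARE proteins on vesicle and membrane, a calcium sensor and the ATPase that recycles them, and each of these roles had rising genes. Among SNAREs, Vamp2 rose 4.12-fold from 17.0% to 69.9% and Snap25 3.64-fold from 27.5% to 100%. Nsf, the recycling ATPase, rose 3.99-fold from 24.8% to 99.0%, and its partner Napb 3.98-fold and 2.70-fold on 2 probes, while the other adaptor gene Napa stood at 67.9% and 87.3%. Syt2, the fast calcium sensor gene of hindbrain synapses, rose 9.41-fold from 10.6% to 100%. Of the endocytosis genes, Sh3gl2 rose 3.52-fold and Dnm1, the dynamin 1 gene, 3.23-fold, whereas Snap91 stood at 65.5% and 66.9%. The falling pair were Stx1a, a plasma membrane SNARE gene, from 59.3% to 3.66% (16.2-fold, and at least 2.54-fold in either experiment), and Syt5, from 49.6% to 7.39% (6.71-fold, a size for which the averages set no bound per experiment). Both had their highest value at E18.

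The oligodendrocyte list split into 7 genes that rose and 2 that fell, of 9 measured (median 1.93), with the same counts under both other scalings. Of all named genes 18.6% rose and 52.8% fell as deposited, 29.8% and 16.4% after division by medians, and 25.4% and 22.5% after quantile normalization. Mobp, a myelin protein gene, stood at 1.08% at E18, 4.63% at P7, 48.7% at P14, 100% at P21 and 60.4% at P56 (13.05-fold from P7). Mog stood at 5.22% at P7, 81.4% at P14, 84.2% at P21 and 46.8% at P56 (8.96-fold), and Mag at 14.4%, 77.2%, 87.9% and 54.7% (3.80-fold). Cldn11, the tight junction gene of myelin, and Gsn, the gelsolin gene, also peaked before the adult age and rose 2.44-fold and 2.22-fold. The adult values of these 5 genes thus lay above P7 but below P21. Car2, the carbonic anhydrase 2 gene, and Apod, a lipid carrier gene, had their maximum at P56 and rose 4.79-fold and 3.90-fold. Pdgfra, the receptor gene of oligodendrocyte progenitors, fell 5.97-fold from 100% to 16.8%. Qk, an RNA-binding protein gene, fell 4.30-fold from 93.1% to 21.7%.

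Genes of astrocytes and Bergmann glia moved in both directions. Of 14 measured, 8 rose, 4 fell and 2 stayed within 2-fold (median 1.296), while 18.6% of all named genes rose and 52.8% fell. Dao, the D-amino acid oxidase gene of cerebellar astrocytes, stood at 0.02% at E18 and P7, 36.6% at P14, 60.3% at P21 and 100% at P56, at least 100-fold higher than at P7. Gjb6, a gap junction gene, rose 5.86-fold from 17.1% to 100%, and Clu 2.93-fold. By contrast Gfap, the astrocyte intermediate filament gene, was at its highest at P7: its values were 8.17%, 100%, 68.7%, 39.9% and 44.2% from E18 to P56, a fall of 2.26-fold. Aqp4, the water channel gene of astrocyte endfeet, stood at 11.3% at E18, 98.9% at P7 and 77.4% at P56. Agt stood at 3.84% at E18, 42.0% at P7, 100% at P14 and 63.1% at P56. Tnc, the tenascin C gene of immature glia, fell 9.32-fold from 88.4% to 9.49%, and Ptn, a growth factor gene, 2.72-fold. Id3, also in this list, fell 5.56-fold. After division by medians Gfap and Ptn were within 2-fold, and 9 of the 14 rose and 2 fell (29.8% and 16.4% of all named genes).

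**Figure D4:**
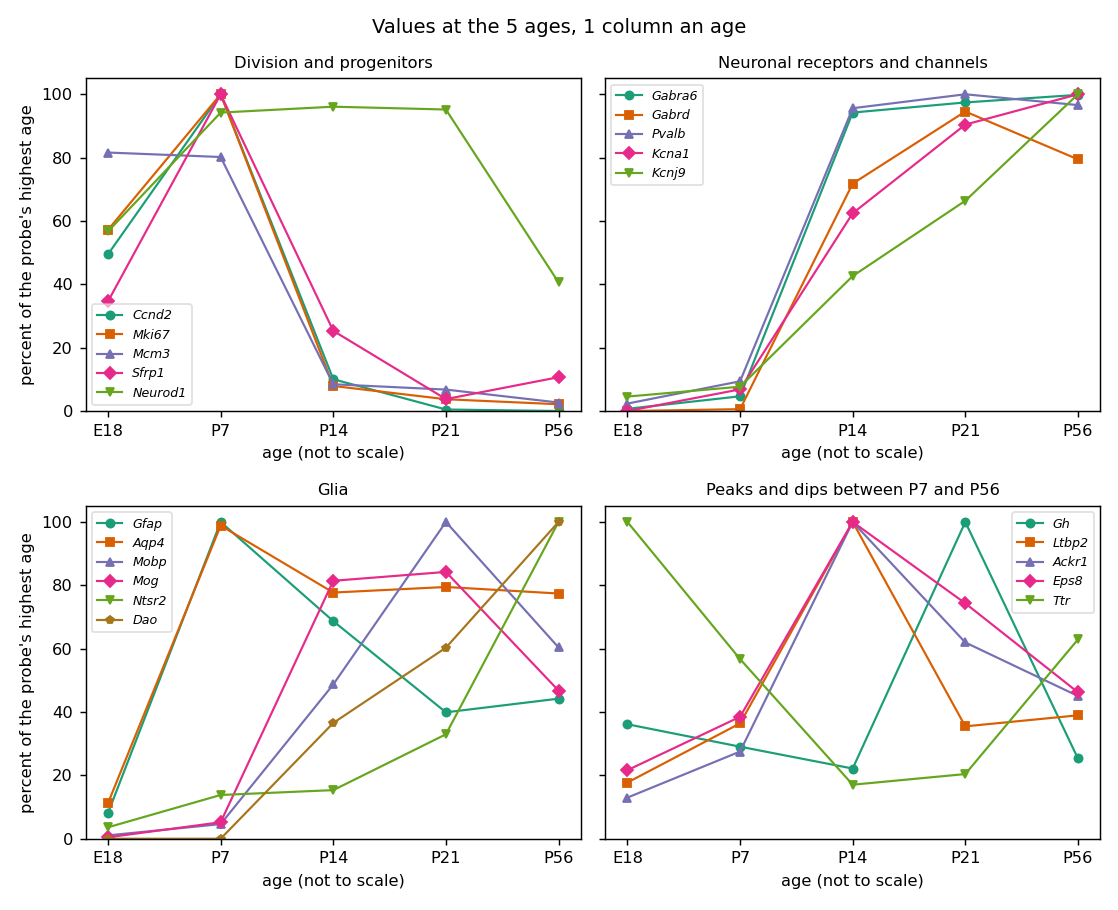
Lines join the values of single probes at the 5 ages, 1 column an age, in percent of the probe's highest age; ages are evenly spaced and not to scale. Ccnd2, Mki67 and Sfrp1 peak at P7, Gabra6 and Pvalb are above 90% from P14 on, Gfap and Aqp4 are at or near their highest at P7 while Dao and Ntsr2 reach 100% at P56, and Gh, Ltbp2, Ackr1 and Eps8 peak between the compared ages.

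Genes of the coverings and vessels of the cerebellum moved as well, and their part in the results above was not tested. Of 17 measured genes of meninges and extracellular matrix 13 fell and 1 rose (median -1.47), against 52.8% and 18.6% of all named genes. The median value of the list was 74.2% at P7 and 23.4% at P56. Vcan, the versican gene of the matrix around young neural cells, fell most, 38.0-fold from 100% to 2.63%. The basement membrane gene Nid1 fell 6.89-fold, Emp1 6.47-fold and Serpinh1, the collagen chaperone, 5.48-fold. The fibrillar collagen genes Col3a1, Col1a2 and Col1a1 fell 4.81-fold, 3.26-fold and 2.85-fold, and Ptgds, the prostaglandin D synthase gene, rose 3.19-fold from 31.4% to 100%. In vessels, 3 of 4 measured genes fell (median -1.79): the basement membrane collagen Col4a1 7.70-fold, its partner chain Col4a2 3.59-fold and the VEGF receptor gene Kdr 3.33-fold, while Pltp stood at 61.9% and 100%. Division by medians left 5 of the 17 and 1 of the 4 past a 2-fold fall, and quantile normalization 5 and 3. Of all named genes 16.4% and 22.5% fell on these scales.

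Markers of other cells were few. Of the choroid plexus pair, Ttr, the transthyretin gene, stood at 56.7% at P7, 17.1% at P14, 20.4% at P21 and 62.9% at P56, and Igfbp2 fell 2.56-fold. Of the microglial pair, Ctss stood at 71.0% and 100% and Laptm5 at 93.0% and 48.9%. The only measured gene of the erythroid list was Ank1, which Purkinje cells also express; no haemoglobin gene is among the named probes. The 4 measured genes typical of neurons outside the cerebellum diverged: the somatostatin gene Sst fell 5.29-fold from 48.0% to 9.07%, Penk rose 3.08-fold, Npy rose 2.31-fold and Neurod2, which granule cells also express, stood at 81.7% and 72.4%. None of the measured markers of these other cells was under 1% of its own highest age at P7 or P56. This does not tell how much RNA of these cells the samples held.

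Smaller lists of metabolism and signalling differed in direction. The shares to set beside their counts are 52.8% of all named genes that fell and 18.6% that rose. Of 6 genes of cholesterol and lipid synthesis 4 fell and 1 rose (median -1.17): Sqle, the squalene epoxidase gene, fell 3.67-fold, Srebf1 2.87-fold, Idi1 2.26-fold and Fdft1 2.23-fold, while Scd1, a fatty acid desaturase, rose 2.12-fold. After division by medians 0 of the 6 fell, against 16.4% of all named genes. Of 3 genes of glycolysis and glucose uptake, Slc2a1, the glucose transporter 1 gene, rose 3.12-fold from 28.1% to 87.6% and Pfkm, the muscle-type phosphofructokinase, 2.52-fold, and Pfkl, the liver type, stood at 58.9% and 65.3%. Of 4 immediate early genes 3 rose: Nr4a1 11.9-fold from 7.59% to 90.5%, Egr1 3.93-fold and Dusp1 2.76-fold. The exception, Dusp6, a phosphatase gene induced by growth factor signalling, fell 2.52-fold. Of 8 growth factor and IGF pathway genes 6 fell and 0 rose (median -1.73), among them Igfbp4 (4.45-fold) and Sfrp2 (4.07-fold, from 33.7% to 8.30%), whereas Igfbp5 stood at 73.2% and 76.2%. After division by medians 4 of the 8 fell and 1 rose (16.4% and 29.8% of all named genes). After quantile normalization 3 fell and 0 rose (22.5% and 25.4%). Of 7 genes of G protein and cyclic nucleotide signalling 3 rose and 1 fell (median -0.85): Gnb4 fell 3.01-fold, Prkar1b rose 2.57-fold and 2.202-fold on its 2 probes, Gnb5 rose 2.12-fold, and Gnai1 rose 2.82-fold on 1 probe and stood at 36.7% and 64.1% on the other.

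**Figure D5:**
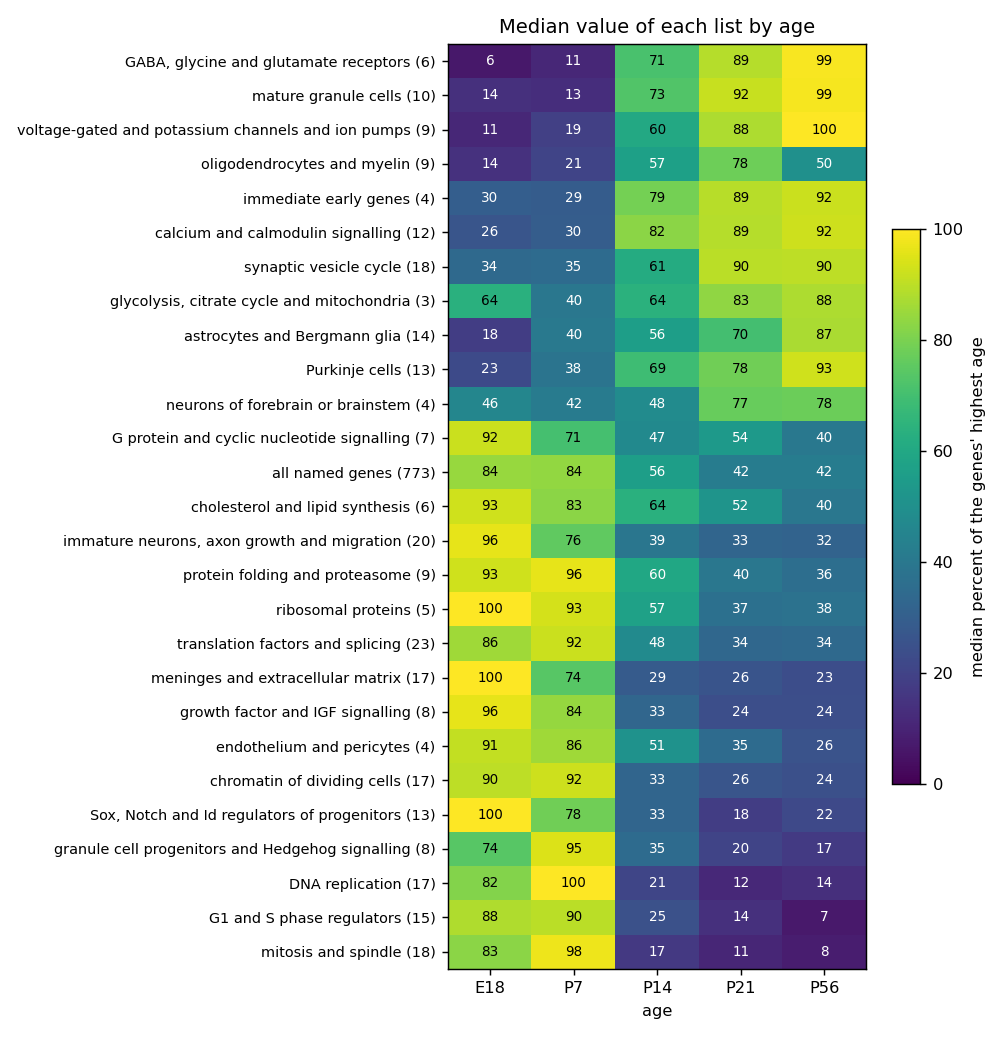
Cells give the median value of each list at each of the 5 ages, in percent of the genes' highest age, for lists with 3 or more measured genes; numbers of genes are in parentheses. The DNA replication list has 100% at P7 and 13.5% at P56, mature granule cells 13.2% and 98.6%, and the oligodendrocyte list has a lower median at P56 (50.4%) than at P21 (77.8%).

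Genes outside every list, 512 of the 773, hold several of the largest changes. Among the rises, St8sia5, a sialyltransferase gene of ganglioside synthesis, went from 6.96% to 91.3% (13.1-fold), Hs3st1, a heparan sulfate sulfotransferase gene, from 7.56% to 91.1% (12.0-fold), Gas7 from 10.2% to 91.9% (8.99-fold) and Hsd11b1, which encodes a glucocorticoid-activating enzyme, from 9.12% to 81.9% (8.98-fold). Among the falls, D430019H16Rik went from 57.7% to 1.57% (36.7-fold) and had its maximum at E18. Cdca7, a Myc-responsive and cell cycle-regulated gene, went from 100% to 3.17% (31.5-fold) and Nt5dc2 from 87.0% to 2.76% (31.5-fold). Mycl, listed with the G1 regulators as a Myc family gene, fell 37.5-fold from 79.9% to 2.13%. For each of these 8 genes, either experiment taken alone must have changed by at least 3.49-fold.

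A few genes stood out at P7 or P56 from the ages beside them. Slc29a1, a nucleoside transporter gene, stood at 28.0% at E18, 100% at P7, 34.2% at P14 and 8.63% at P56, so that P7 was 2.92-fold above the larger of its neighbours. Sfrp1 was 2.89-fold above them and Ccnd2 2.02-fold. Nfia, a factor gene of glial and granule cell development, Anp32a and Lpl, the lipoprotein lipase gene, were 1.99-fold, 1.98-fold and 1.85-fold above them. The adult age stood out most in Ntsr2, then in Gpld1, which at 100% was 2.2-fold above its next highest age, and in Cx3cl1, the neuronal chemokine fractalkine, at 1.72-fold. Nefh, Dao and Fez2 followed at 1.71-fold, 1.66-fold and 1.65-fold.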

How the data were processed

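The deposited table holds, per the labels' descriptions, mean signals of 2 array experiments for each of 5 ages of mouse cerebellum; for scanner, background correction and normalization, nothing is given in the sources used here. The unit of the deposited values, percent of a probe's highest age, is a reading of the numbers and not a statement by the authors. Values under 1% (2 at P7 and 4 at P56) were set to 1%, and the log2 difference P56 minus P7 was taken for each probe and called at 2-fold. In lists, a gene's probes enter as their mean log2 value.

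Symbols came from the platform's annotation: 787 probes have 1, 16 several and 94 none; 784 of the 787 were found by gene identifier in RefSeq (GRCm38.p6) and 0 symbols changed. Of the 773 genes, 261 are in 1 or more of 29 lists, and 32 in more than 1. The comparison, the lists and the genes to be named were chosen with earlier results of these data known. Named were the 15 largest rises and falls, bounds, the 4 most changed genes of each list, and the clearest peaks and dips; other list members were named as examples after their values were seen. With 1 column an age no test was made. Calculations used Python 3.11.15 with pandas 2.3.3 and numpy 2.4.6 and were tested on simulated data. Floors, pseudocount, thresholds, probe filters and column scalings were varied.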

Additional observations from a re-analysis of the deposited data

How the results depend on the processing

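With 1 column an age, nothing bears on variation between animals or arrays beyond the bounds from the averages. No paired analysis was possible because each age has 1 column. Counts in both directions changed with scaling: division of columns by their medians gave 271 probes higher and 141 lower with a median difference of -0.064 (log2), and quantile normalization gave 231 and 192 with -0.22. A 3-fold threshold gave 97 higher and 219 lower. With the floor raised to the 10th percentile (20.4%) the median was -1.04; it was -1.03 with a pseudocount of 1% and -1.05 with 1 value per named gene. The 1.5-fold threshold (224 higher, 572 lower), the absence of a floor, the pseudocount and the filter at 1% left both counts within 1.5 times of those given. Of 372 values of named genes, called or not, under the floor at the 10th percentile, division by medians and quantile normalization, 48 changed their side of the 2-fold threshold, in either direction. With the floor at the 10th percentile Sox4, Dpysl3 and Sfrp2 fell by 0.97, 0.85 and 0.73 (log2) and so no longer by 2-fold. Over the lists, 54 of 290 counts moved by more than 1.5 times; those of the mature granule cell, receptor, channel and myelin lists did not under either scaling.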

Other observations

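Among the 224 named probes at or above 1% that stayed within 2-fold between P7 and P56, 6 were 2-fold or more above both ages at P14 or P21, and 5 were 2-fold or more below both. The clearest peak was Gh, the growth hormone gene, which stood at 36.2% at E18, 29.1% at P7, 22.2% at P14, 100% at P21 and 25.4% at P56. Ltbp2, a gene of a latent TGF-beta binding protein, stood at 36.4% at P7, 100% at P14, 35.5% at P21 and 39.0% at P56. Ackr1, an atypical chemokine receptor gene, stood at 27.5%, 100%, 62.0% and 45.1% at these ages, and Eps8, an actin regulator gene, at 38.5%, 100%, 74.3% and 46.2%. Both probes of Cdkn1a followed the same course. Ttr had the deepest dip, to 17.1% at P14. Phb, the prohibitin gene, stood at 70.4% at P7, 21.7% at P21 and 50.6% at P56, and Polr2a, the gene of the largest subunit of RNA polymerase II, at 98.8%, 35.9% and 76.0%. Cmtm7 and Slc39a9 had their lowest values at P21 too, at 32.7% and 33.9%. Slc6a13, at 26.7% at P21, was 1.99-fold below the lower of P7 and P56 and so just short of 2-fold. These genes would be counted as unchanged from P7 and P56 alone.

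Among probes with no single symbol, 47 of the 94 with none fell and 19 rose, and of the 16 with several, 7 fell and 2 rose. Over all 897 probes 52.3% fell and 18.8% rose.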
